A study of Mus musculus with 90 samples.

Results

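The transcripts described here were those of 7 interferon regulatory factors (Irf1, Irf2, Irf3, Irf5, Irf7, Irf8 and Irf9) and of Batf2, 8 genes of the 53697 in the count table, found by matching the Ensembl identifiers of the table to these symbols. They were followed in 2 mouse tumour lines grown in culture, the melanoma line YUMM2.1 and the colon carcinoma line CT26, each cultured for up to 3 weeks with 50 IU/mL IFNγ or with bovine serum albumin (BSA) as the control at 0 IU/mL. Each line gave 15 groups of 3 replicates, 90 samples in all. At 0 weeks there were BSA controls and naive cells given IFNγ for 2 h or 24 h. At 1, 2 and 3 weeks there were BSA controls of the same age and chronically exposed cells that were harvested without rechallenge (0 h), or after rechallenge with fresh IFNγ for 2 h or 24 h. No group carried a genetic alteration made for the experiment. The cells were grown alone in dishes, and the time between the last medium change and the 0 h harvest was not given in the sources used here. The labels speak of triplicate experiments without more detail, so the p-values measure the spread between these samples, which may be technical.

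IFNγ binds a receptor that activates the kinases JAK1 and JAK2, and the signal reaches GAS elements in promoters. IRF1 is an early product of this signal and a transcription activator that binds IRF elements in later targets such as the guanylate-binding proteins and the antigen-processing genes. IRF2 binds the same elements and is known mainly as a repressor. IRF9 is part of ISGF3, the complex that binds interferon-stimulated response elements, and IRF7 is a target of that complex which amplifies type I interferon production. IRF3 and IRF5 are activated by phosphorylation downstream of pattern recognition receptors. IRF8 is best known from myeloid cells and B cells. BATF2 is an interferon-inducible basic leucine zipper protein that can work together with IRF1 in macrophages.

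The promoters of the members bear on these routes, and RefSeq windows from 250 bases before to 50 bases after a gene's start (build GRCm38.p6) were searched on both strands for GAS, spelled TTCNNNGAA, and for an IRF element, spelled GAAA, then 2 bases of any kind, then GAAA. Windows were found for 7 of the 8 members, 10 windows in all. Of 32851 such windows over the genome, 8.3% held a GAS match, 3.44% an IRF element match and 0.454% both. The window of Irf1 (chr11:53769764-53770063, plus strand) is shown because Irf1 was the member that answered IFNγ within 2 h, that of Irf2 (chr8:46739495-46739794, plus strand) because it held both motifs, that of Irf8 (chr8:120736108-120736407, plus strand) because it held 2 GAS matches in a gene with almost no reads, and that of Irf7 (chr7:141266375-141266674, minus strand) because Irf7 rose at 24 h but not at 2 h. Capitals mark the matches.
Irf1: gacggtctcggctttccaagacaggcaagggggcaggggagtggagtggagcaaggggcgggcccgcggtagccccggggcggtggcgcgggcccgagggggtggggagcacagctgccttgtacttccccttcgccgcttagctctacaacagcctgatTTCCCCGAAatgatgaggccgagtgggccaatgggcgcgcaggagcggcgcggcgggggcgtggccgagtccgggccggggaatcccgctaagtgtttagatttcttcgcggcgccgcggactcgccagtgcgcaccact
Irf2: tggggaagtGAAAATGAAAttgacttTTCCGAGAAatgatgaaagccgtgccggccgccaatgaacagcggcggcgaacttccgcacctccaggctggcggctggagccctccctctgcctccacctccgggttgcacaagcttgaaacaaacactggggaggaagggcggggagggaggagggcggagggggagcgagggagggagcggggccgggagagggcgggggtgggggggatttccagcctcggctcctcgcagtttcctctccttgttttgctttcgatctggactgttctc
Irf8: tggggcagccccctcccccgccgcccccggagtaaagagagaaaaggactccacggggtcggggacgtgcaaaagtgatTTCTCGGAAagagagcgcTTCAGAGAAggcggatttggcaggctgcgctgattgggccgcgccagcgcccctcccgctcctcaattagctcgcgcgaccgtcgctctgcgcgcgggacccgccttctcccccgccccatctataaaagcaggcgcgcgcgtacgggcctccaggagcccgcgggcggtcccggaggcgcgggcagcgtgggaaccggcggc
Irf7: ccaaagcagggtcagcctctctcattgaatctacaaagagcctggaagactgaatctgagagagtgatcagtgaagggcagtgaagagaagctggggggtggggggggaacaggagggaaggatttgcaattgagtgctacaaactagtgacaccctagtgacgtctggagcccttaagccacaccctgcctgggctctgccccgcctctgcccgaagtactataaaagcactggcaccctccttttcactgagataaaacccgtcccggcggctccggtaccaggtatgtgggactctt
The GAS match of Irf1, TTCCCCGAA, began at position -90 relative to the start. In Irf2, the IRF element match GAAAATGAAA began at -241 and the GAS match TTCCGAGAA at -224, and the matches did not overlap. In Irf8, the GAS matches began at -171 and -153. The second window of Irf1, the second window of Irf8 and the windows of Irf3, Irf5, Irf7 and Irf9 held neither string of letters.

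By the GENCODE M21 annotation of GRCm38, Irf1 (ENSMUSG00000018899.16) lies at chr11:53770014-53778374, Irf2 (ENSMUSG00000031627.9) at chr8:46739732-46847458, Irf3 (ENSMUSG00000003184.15) at chr7:44997648-45002848 and Irf5 (ENSMUSG00000029771.12) at chr6:29526625-29541871, all on the plus strand. Irf7 (ENSMUSG00000025498.15) lies at chr7:141262706-141266481 on the minus strand. Irf8 (ENSMUSG00000041515.10) lies at chr8:120736358-120756694, Irf9 (ENSMUSG00000002325.15) at chr14:55603571-55610030 and Batf2 (ENSMUSG00000039699.13) at chr19:6140983-6172476, on the plus strand. Irf9 shares 123 bases with the same-strand gene Rnf31, and opposite-strand genes overlap the ends of Batf2 (Arl2), Irf3 (Bcl2l12), Irf5 (Tnpo3) and Irf7 (Phrf1). Whether counting used the strand was not given in the sources used here, so reads in the shared bases cannot be assigned with certainty.

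The deposited values were raw counts, and levels are given as CPM, the count divided by the sample's total count, in the usual scaling of counts per library. They are counts of 3′ tags and were compared between groups for the same gene. Total counts per sample lay between 274719 and 3161276 for YUMM2.1 and between 295157 and 2205285 for CT26. The total was below 25% of the line's median in 3 libraries, all of them unrechallenged chronic cultures: replicate 3 at 3 weeks in YUMM2.1, and replicate 3 at 1 week and at 3 weeks in CT26. None of the 90 pairs of replicates were identical. Of 8 melanocyte markers, Sox10 and Pax3 were counted in 45 of 45 YUMM2.1 samples, while the pigment genes Pmel, Mlana, Tyr and Tyrp1 were near or at 0. Mitf and Dct were not higher in YUMM2.1, with medians of 2.03 and 0.642 CPM against 2.58 and 1.94 CPM in CT26. Of 9 colon epithelial and carcinoma markers, the keratins Krt18 and Krt20 were counted in 45 of 45 CT26 samples. The other markers of that list were near or at 0 in CT26. Epcam, Cdh1, Krt19, Cdx1 and Vil1 had 0 counts, Krt8 had 4 and Cdx2 had 5. Immune cell markers, 11 genes of which 5 were at 0 in each line, summed to a median of 5.97 CPM in the YUMM2.1 samples, and in the CT26 samples to 4.38 CPM.

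After a filter on low counts, 9589 YUMM2.1 genes were tested, among them 5 members (Irf1, Irf2, Irf3, Irf9 and Batf2), and 8516 CT26 genes, among them 6 members (the same and Irf7). Irf5 and Irf8 passed the filter in neither line, and Irf7 did not pass it in YUMM2.1. The comparisons used the quasi-likelihood test of edgeR over all 45 samples of a line, with p-values adjusted by Benjamini-Hochberg over all tested genes and a threshold of 0.05. A member is said to have risen or fallen only past that threshold. All log2 fold changes are of normalised counts and are given with their standard errors (SE). The comparisons are not independent of each other: both naive responses share the 0-week controls, and both rechallenge responses of a week share the unrechallenged cultures of that week.

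In naive YUMM2.1 cells, 1 of the 5 tested members passed the test at 2 h (Irf1), against 0.24% of all tested genes that passed in either direction, and 2 passed at 24 h (Irf1 and Batf2), against 0.886%. In naive CT26 cells, 1 of 6 passed at 2 h (Irf1), against 0.235%, and 3 passed at 24 h (Irf1, Irf7 and Batf2), against 2.04%. Without rechallenge, 1 member (Irf1) differed from the same-age control in YUMM2.1 at 1, 2 and 3 weeks, where the share of all genes called was 0.73%, 1.12% and 0.97%. In CT26, 2 members (Irf1 and Irf7) differed from it at 1 and 2 weeks and 3 (Irf1, Irf7 and Batf2) at 3 weeks, where the shares were 0.728%, 1.67% and 7.23%. Every member called in these comparisons was higher with IFNγ.

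Irf1 was the member with the earliest response in both lines. In naive YUMM2.1 cells its level was 10.2, 7.39 and 8.06 CPM in the controls, 167, 123 and 149.6 CPM after 2 h of IFNγ, and 57.1, 70.4 and 63.6 CPM after 24 h. The 3 groups did not overlap, with the samples at 24 h between the others. Irf1 rose 16.8-fold at 2 h (log2 fold change 4.07, SE 0.21, n = 3 per group, adjusted p = 2.21e-19) and stood 7.07-fold above the control at 24 h (2.82, SE 0.23, adjusted p = 4.2e-13). Between 2 h and 24 h it fell by 1.25 on the log2 scale (SE 0.16, adjusted p = 3.54e-07), in a comparison in which 0.563% of all genes were called and Irf1 was the only member.

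The naive CT26 cells followed the same order. Irf1 was at 8.23, 6.90 and 6.56 CPM in the controls, at 77.8, 69.8 and 80.1 CPM after 2 h, and at 27.0, 40.4 and 37.4 CPM after 24 h, again without overlap between groups. The rise at 2 h was 3.46 on the log2 scale (SE 0.22, adjusted p = 1.79e-15), that at 24 h was 2.31 (SE 0.27, adjusted p = 1.07e-08), and the level fell by 1.15 from 2 h to 24 h (SE 0.20, adjusted p = 7.27e-05), where 2.05% of all genes were called and Irf7 was the other member called. The 0-week control levels of Irf1 differed between CT26 and YUMM2.1 by less than the SE (log2 difference -0.13, SE 0.32), and the naive 2 h responses differed by -0.60 (SE 0.36), short of the threshold with an adjusted p of 1 by edgeR.

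**Figure D1:**
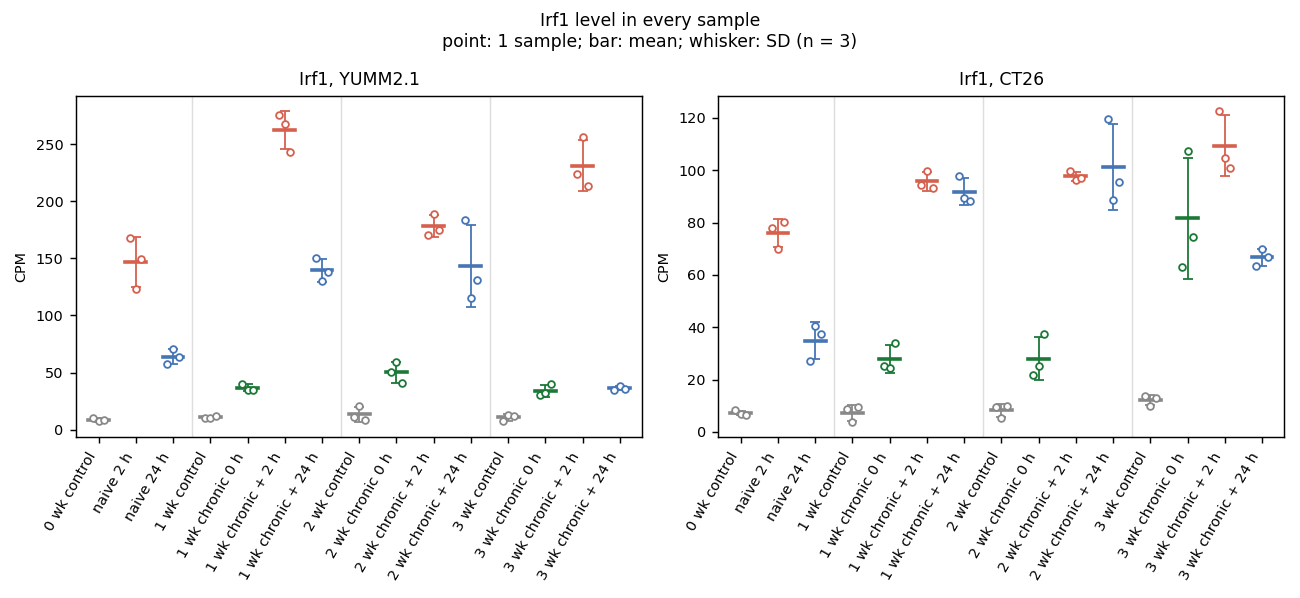
Irf1 in CPM by group in YUMM2.1 and CT26, with 1 point per replicate, a bar at the mean and whiskers of 1 SD (n = 3). All 33 IFNγ-exposed samples of each line stand above the 12 control samples, and the 3-week cultures without rechallenge stand at 30.3 to 40.0 CPM in YUMM2.1 and at 62.9 to 107 CPM in CT26.

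Continuous exposure left Irf1 above the control at every week in both lines. In YUMM2.1 the unrechallenged cultures had 40.2, 34.5 and 35.1 CPM at 1 week, 50.0, 59.5 and 41.1 CPM at 2 weeks, and 30.3, 32.0 and 40.0 CPM at 3 weeks, while the 9 controls of these weeks lay between 7.22 and 21.1 CPM. Every chronic sample was above every control. The log2 fold changes over the same-age control were 1.69 (SE 0.21), 1.89 (SE 0.23) and 1.47 (SE 0.23), with adjusted p of 1.32e-07, 4.38e-08 and 2.97e-05.

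Set against the naive kinetics, the 3-week chronic level of Irf1 in YUMM2.1 was below both acute times. It was lower than naive 2 h by 2.27 on the log2 scale (SE 0.19, adjusted p = 4.07e-12) and than naive 24 h by 1.02 (SE 0.21, adjusted p = 0.00405), and none of the 3 chronic samples reached the lowest naive 24 h sample at 57.1 CPM. These comparisons called 1.8% and 0.594% of all genes, and Irf1 was the only member in each. The difference from 24 h was no longer called without replicate 1 or replicate 2, or when the fit held only the compared groups. At 1 and 2 weeks the level was also below naive 2 h, by 2.01 and 1.60 (0.48% and 1.41% of all genes called), and the differences from naive 24 h of -0.76 and -0.36 did not pass by edgeR (adjusted p = 0.0565 and 0.571). The first of these passed with the replicate block (adjusted p = 0.0461), by DESeq2 (0.0329) and with library totals in place of TMM scaling (0.0355).

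In CT26 the chronic level of Irf1 was higher at 3 weeks than at 1 and 2 weeks. It was 25.02, 24.5 and 34.1 CPM at 1 week, 21.7, 24.996 and 37.4 CPM at 2 weeks, and 62.9, 107 and 74.5 CPM at 3 weeks, with the 9 controls of these weeks between 3.82 and 13.7 CPM. The 3-week samples lay above all samples of the earlier weeks. The rises over the control were 1.74 (SE 0.28), 1.67 (SE 0.27) and 2.53 (SE 0.22) on the log2 scale, with adjusted p of 5.59e-05, 3.08e-05 and 3.47e-12. The direct comparison of 3 weeks with 2 weeks, added after the values were seen, gave a rise of 1.36 (SE 0.20, adjusted p = 1.06e-05). It called 3.17% of all genes. In YUMM2.1 the same comparison gave -0.66 (SE 0.21, adjusted p = 0.343), with 0.073% of all genes called.

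The 3-week level in CT26 differed from naive 2 h by only -0.10 on the log2 scale (SE 0.18, adjusted p = 0.782), and it was above naive 24 h by 1.05 (SE 0.21, adjusted p = 0.00192), a call that was lost without replicate 1 or replicate 2 and in the fit of the compared groups alone. These 2 comparisons called 10.1% and 4.8% of all genes, with Irf7 as the member called in the first and Irf1 in the second. Both compare levels of cultures of unlike age and leave out the controls. The mean Irf1 level was 7.23 CPM in the 0-week controls and 12.1 CPM in the 3-week controls. Over its own control, the rise at 3 weeks given above lay nearer to that at naive 24 h than to that at 2 h, which was not tested. At 1 and 2 weeks Irf1 was below naive 2 h by 1.59 and 1.46 (0.599% and 1.47% of all genes called). The gap between the lines in the difference of 3 weeks from naive 24 h, tested after the values were seen, was 2.08 (CT26 minus YUMM2.1, SE 0.29, adjusted p = 3.97e-06), where 0.387% of the 10339 genes of the joint fit were called. The rises over the same-age control at 3 weeks differed between the lines by 1.11 (SE 0.33), which did not pass (adjusted p = 0.221).

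**Figure D2:**
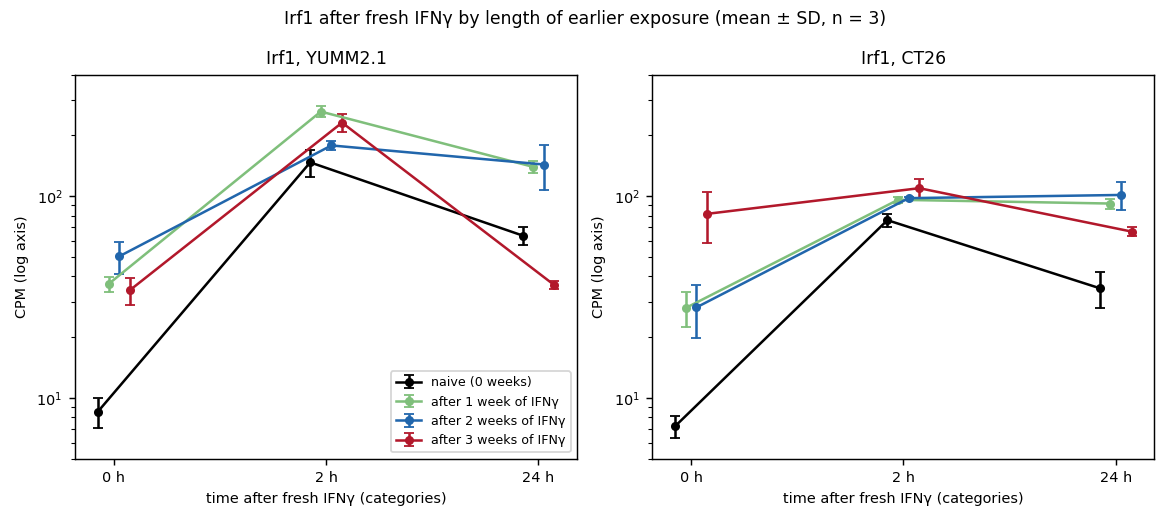
Irf1 in CPM on a log axis against the time after fresh IFNγ (0, 2 and 24 h, evenly spaced as categories) for naive cells and for cells exposed for 1, 2 or 3 weeks, where 0 h is the 0-week control for naive cells and the unrechallenged culture otherwise, with points at the mean of 3 replicates, whiskers of 1 SD and lines joining the means. In YUMM2.1 the 3-week line returns at 24 h to 35.1 to 38.1 CPM, near its 0 h level, and in CT26 it starts at 62.9 to 107 CPM, with 2 h at 101 to 123 CPM and 24 h at 63.4 to 69.8 CPM.

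Rechallenge with fresh IFNγ raised Irf1 again in YUMM2.1. After 2 h it was at 275, 268 and 243 CPM at 1 week, 171, 189 and 175 CPM at 2 weeks, and 224, 256 and 213 CPM at 3 weeks, and no sample overlapped the unrechallenged cultures. The rises were 2.74 (SE 0.17), 1.90 (SE 0.16) and 2.78 (SE 0.19) on the log2 scale with adjusted p of 5.56e-16, 4.37e-11 and 7.77e-15. Members called at 2 h by edgeR were Irf1 at 1 and 2 weeks and Irf1 with Batf2 at 3 weeks, 1, 1 and 2 of 5, against 0.615%, 0.428% and 1.08% of all genes.

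At 24 h of rechallenge the weeks parted in YUMM2.1. Irf1 stood at 150.1, 130.1 and 138 CPM at 1 week, at 184, 115 and 131 CPM at 2 weeks, and at 35.1, 38.1 and 35.3 CPM at 3 weeks. The 3-week samples fell inside the range of the unrechallenged cultures of that week, and the others lay above theirs. The rises were 1.88 (SE 0.18, adjusted p = 5.1e-11) and 1.51 (SE 0.17, adjusted p = 2.89e-08) at 1 and 2 weeks and 0.17 (SE 0.22, adjusted p = 1) at 3 weeks. Members called were 3 of 5 at 1 week (Irf1, Irf9 and Batf2), 2 at 2 weeks (Irf1 and Batf2) and 0 at 3 weeks, against 1.42%, 0.615% and 0% of all genes, and at 3 weeks 351 of the 9589 genes had an unadjusted p below the threshold.

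The difference between these responses was tested directly. The 24 h response at 3 weeks was smaller than the naive 24 h response by 2.65 on the log2 scale (SE 0.33, adjusted p = 8.35e-08), where 0.615% of all genes were called and Irf1 was the only member. Tests added after the values were seen put it 1.71 (SE 0.28, adjusted p = 0.000132) and 1.34 (SE 0.28, adjusted p = 0.0115) below the 24 h responses at 1 and 2 weeks, where 0.542% and 0.177% of genes were called; the second call was lost without replicate 1, without replicate 3 and with the compared groups alone. At 2 h the response at 3 weeks was smaller than the naive one by 1.29 (SE 0.31), which missed the threshold by edgeR (adjusted p = 0.0992) and passed it by DESeq2 (adjusted p = 0.0413), where edgeR called 0.115% of all genes. In levels, the 2 h samples at 3 weeks were all above the naive 2 h samples, a difference of 0.51 (SE 0.15, adjusted p = 0.0227, added after the values were seen) in a comparison that called 8.1% of all genes and that lost the call without any 1 of the 3 replicates, with no filter on low counts and with the compared groups alone.

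Within rechallenge in YUMM2.1, the decline of Irf1 from 2 h to 24 h was also tested after the values were seen. It fell by 0.85 at 1 week (SE 0.15, adjusted p = 0.000258, lost without replicate 1), changed by -0.38 at 2 weeks (SE 0.15, adjusted p = 0.708), and fell by 2.60 at 3 weeks (SE 0.17, adjusted p = 7.79e-16). The shares of all genes called were 0.709%, 0.0939% and 1.49%. The level at 24 h of rechallenge was above naive 24 h at 1 and 2 weeks, by 1.12 (adjusted p = 1.54e-05) and 1.16 (adjusted p = 9.86e-06, lost without replicate 1), and below it at 3 weeks, by 0.85 (adjusted p = 0.00761), and the last of these calls was lost without any 1 replicate and with the compared groups alone. These 3 comparisons called 0.834%, 0.824% and 0.813% of all genes.

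In CT26, Irf1 answered rechallenge at 1 and 2 weeks. After 2 h it was at 94.3, 99.9 and 93.2 CPM at 1 week and at 99.5, 96.4 and 96.9 CPM at 2 weeks, and after 24 h at 97.7, 89.4 and 88.2 CPM and at 119.6, 88.6 and 95.5 CPM. All of these samples were above the unrechallenged cultures of their week, and the 2 h and 24 h levels lay close together, while naive samples were at 69.8 to 80.1 CPM after 2 h and at 27.0 to 40.4 CPM after 24 h. The rises were 1.78, 1.73, 1.77 and 1.81 on the log2 scale (SE 0.18 to 0.21), with adjusted p of at most 1.63e-07. The changes from 2 h to 24 h were -0.06 (SE 0.16) at 1 week and 0.04 (SE 0.15) at 2 weeks and did not pass. The 24 h level was above naive 24 h by 1.29 (adjusted p = 0.000137, lost without replicate 1) and 1.4999 (adjusted p = 2.25e-06). These 4 comparisons, added after the values were seen, called 0.528%, 0.247%, 1.36% and 1.68% of all genes.

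At 3 weeks the CT26 cultures already held high Irf1 before rechallenge. Their level was 123, 105 and 101 CPM after 2 h and 63.4, 69.8 and 66.7 CPM after 24 h, against 62.9, 107 and 74.5 CPM without rechallenge, and both rechallenged groups overlapped the unrechallenged one. The changes were 0.46 (SE 0.18, adjusted p = 0.577) and -0.24 (SE 0.19, adjusted p = 0.955). Both were smaller than the naive responses, by 3.01 at 2 h (SE 0.30, adjusted p = 2e-09) and by 2.55 at 24 h (SE 0.33, adjusted p = 2.27e-07), in comparisons that called 0.211% and 1.2% of all genes. The 24 h response at 3 weeks was also below those at 1 and 2 weeks, by 1.97 (SE 0.28, adjusted p = 1.27e-05) and 2.05 (SE 0.26, adjusted p = 9.61e-07), tests added after the values were seen that called 0.47% and 0.27% of genes.

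Members called upon rechallenge in CT26 were 2 of 6 at 2 h (Irf1 and Batf2) and 3 at 24 h (Irf1, Irf7 and Batf2) at 1 week, Irf1 and Batf2 at both times at 2 weeks, and 0 at both times at 3 weeks. The shares of all genes called were 0.376% and 1.32% at 1 week, 0.305% and 0.658% at 2 weeks, and 0.0117% and 0% at 3 weeks, where 618 and 439 of the 8516 genes had an unadjusted p below the threshold. The 2 h response of Irf1 at 3 weeks differed between the lines by -2.29 (CT26 minus YUMM2.1, SE 0.26, adjusted p = 6.54e-09), where 0.193% of the genes of the joint fit were called. Replicate 3 of the unrechallenged 3-week group, with 22 Irf1 counts, is among the 3 libraries of low depth, and without the libraries of low depth these calls of Irf1 remained.

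The level of Irf7 was higher in CT26 than in YUMM2.1. In CT26 it was at 1.37, 2.51 and 5.37 CPM in the 0-week controls, at 2.39, 2.12 and 3.75 CPM after 2 h, and at 34.7, 33.9 and 58.3 CPM after 24 h, so that the 2 h samples lay inside the control range and the 24 h samples far above it. The change at 2 h was -0.10 (SE 0.49, adjusted p = 1). The rise at 24 h was 13.8-fold (log2 fold change 3.79, SE 0.33, adjusted p = 6.51e-12), and the difference between the times was 3.89 (SE 0.34, adjusted p = 8.89e-12). Irf7 therefore moved in the opposite direction to Irf1 between 2 h and 24 h.

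The chronic level of Irf7 in CT26 was 24.3, 18.0 and 24.8 CPM at 1 week, 21.7, 16.7 and 13.2 CPM at 2 weeks and 56.5, 49.1 and 54.2 CPM at 3 weeks, and the 9 controls lay between 0.71 and 5.33 CPM. The 3-week samples were above all samples of the earlier weeks. Rises over the control were 2.22 (SE 0.35, adjusted p = 4.34e-05), 2.09 (SE 0.38, adjusted p = 0.000335, lost without replicate 1 or 2) and 4.76 (SE 0.37, adjusted p = 1.67e-13), and 3 weeks exceeded 2 weeks by 1.52 (SE 0.27, adjusted p = 0.00028, added after the values were seen). Against the naive kinetics, the 3-week level was 4.02 above 2 h (SE 0.34, adjusted p = 3.42e-12) and differed from 24 h by 0.13 (SE 0.25, adjusted p = 0.945), while the 2-week level was 1.39 below 24 h (SE 0.27, adjusted p = 0.00112), a call lost without replicate 3.

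Rechallenge changed Irf7 in CT26 in 1 of 6 comparisons. After 2 h its level was 28.1, 40.3 and 34.4 CPM at 1 week, 16.3, 16.8 and 20.2 CPM at 2 weeks and 54.9, 64.4 and 54.2 CPM at 3 weeks, and after 24 h it was 40.6, 47.7 and 56.0 CPM, 37.2, 32.8 and 18.3 CPM, and 62.1, 57.7 and 52.0 CPM. At 1 week both groups lay above the unrechallenged one, and at 3 weeks both overlapped it. Of the 6 changes only that at 24 h of 1 week passed the test (1.04, SE 0.27, adjusted p = 0.0348), and it was lost without any 1 replicate, without the libraries of low depth, with the compared groups alone and with no filter on low counts. The 24 h response at 3 weeks was 3.65 smaller than the naive one (SE 0.42, adjusted p = 1.95e-08), in the same comparison as that of Irf1.

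**Figure D3:**
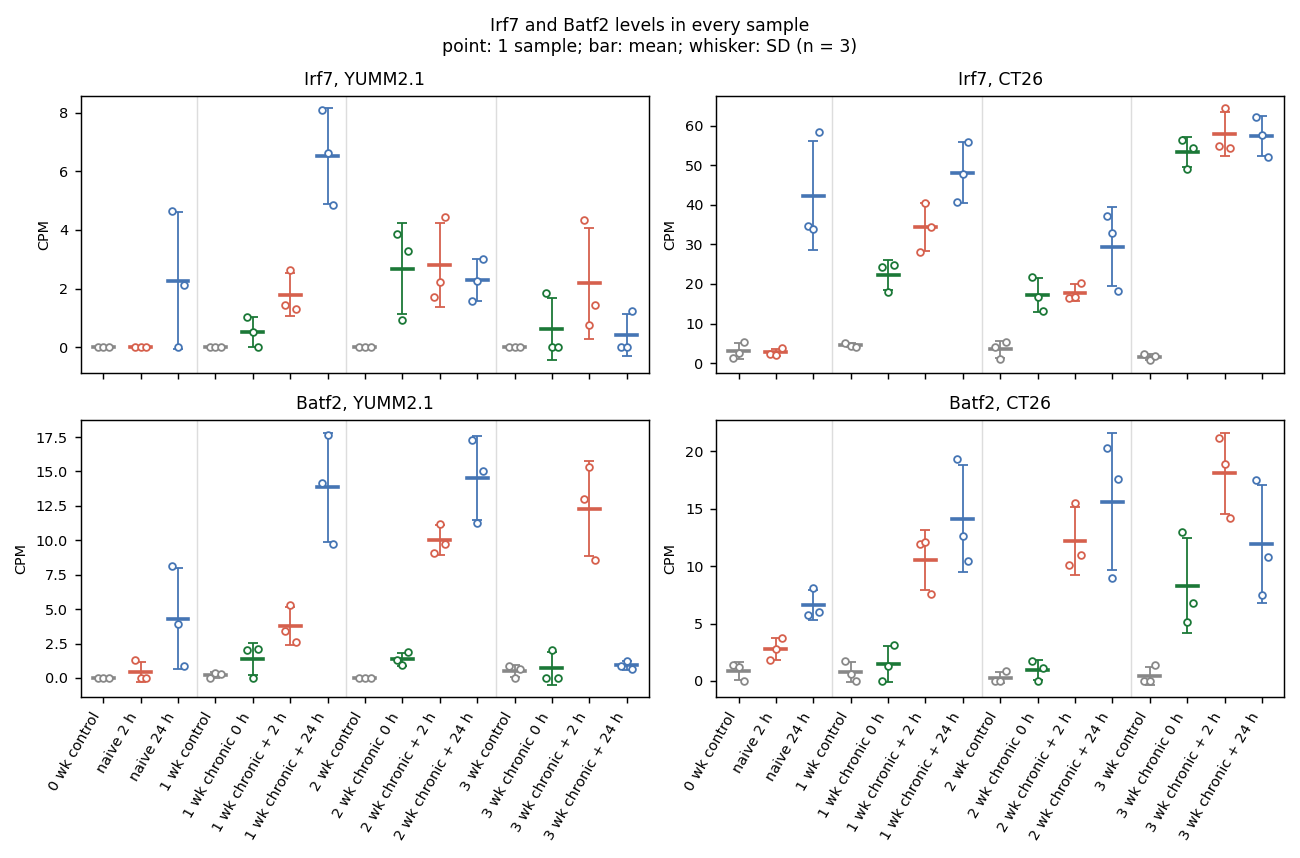
Irf7 and Batf2 in CPM by group in both lines, with 1 point per replicate, a bar at the mean and whiskers of 1 SD (n = 3). Irf7 in CT26 reaches 33.9 to 58.3 CPM at naive 24 h and 49.1 to 56.5 CPM at 3 weeks without rechallenge, while in YUMM2.1 it stays at or below 8.11 CPM in all 45 samples.

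In YUMM2.1, Irf7 was at 0 in all 12 controls and in the 3 naive 2 h samples, and its highest level in the line was 8.11 CPM. After 24 h naive cells had 4.66, 0 and 2.14 CPM, 9 counts in the group, which is at least 3.05-fold higher than the 3 counts over the group that the controls at 0 allow. The unrechallenged cultures at 2 weeks had 3.85, 0.915 and 3.27 CPM, at least 3.37-fold above their controls on the same floor. At 24 h of rechallenge at 1 week the level was 8.11, 6.61 and 4.85 CPM, 23 counts against 3 without rechallenge, a ratio of 9.27 with a 95% exact interval of 2.8 to 48.2 that covers counting error only. At 24 h of rechallenge at 3 weeks the samples had 0, 0 and 1.24 CPM. In the 0-week controls of the joint fit Irf7 was higher in CT26 than in YUMM2.1 (adjusted p = 6.45e-05 by edgeR), in a comparison that called 46% of the 10339 genes. The filter of that fit was applied over all 30 groups, and with the compared groups alone Irf7 did not pass it. The naive 24 h response and the 3-week chronic rise of Irf7 did not pass the test of a difference between the lines by edgeR (adjusted p = 0.824 and 0.986), where 0.087% and 0.106% of genes were called and the YUMM2.1 values rested on few counts. In these bulk samples fewer expressing cells and less RNA per cell cannot be told apart.

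Batf2 was low in every group and rose mainly on rechallenge. In YUMM2.1 it was at 0 in the 0-week controls, at 1.27, 0 and 0 CPM after 2 h and at 8.16, 3.91 and 0.854 CPM after 24 h. The 13 counts at 24 h were at least 4.41-fold above the 3 counts over the group that the controls at 0 allow, and the rise passed the test narrowly (adjusted p = 0.0439), a call lost without any 1 replicate and without the libraries of low depth. The filter was applied over all 15 groups of the line, and with the compared groups alone Batf2 did not pass it. The unrechallenged cultures had 2.04, 0 and 2.07 CPM at 1 week, 1.283, 0.915 and 1.87 CPM at 2 weeks and 0, 2.06 and 0 CPM at 3 weeks, and none of these groups passed the test against its control.

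Upon rechallenge in YUMM2.1, Batf2 reached 3.37, 5.29 and 2.59 CPM after 2 h and 14.2, 17.6 and 9.70 CPM after 24 h at 1 week, and 9.06, 11.2 and 9.74 CPM and 17.3, 11.3 and 15.04 CPM at 2 weeks. At 3 weeks it reached 13.0, 15.3 and 8.55 CPM after 2 h and 0.877, 1.23 and 0.619 CPM after 24 h. The 24 h samples at 3 weeks lay within the range of the unrechallenged ones, and all others lay above theirs. The calls were a rise of 3.47 at 24 h of 1 week (SE 0.74, adjusted p = 0.00384), of 3.26 at 24 h of 2 weeks (SE 0.69, adjusted p = 0.0074) and of 3.88 at 2 h of 3 weeks (SE 0.89, adjusted p = 0.0141), each lost without at least 1 of the replicates, and the last also with the compared groups alone. The rise at 2 h of 2 weeks (2.76) missed the threshold by edgeR and passed it by DESeq2 (adjusted p = 0.0392), with no filter on low counts (0.0289) and with the compared groups alone (0.0216). At 3 weeks the 50 counts at 2 h against 2 counts without rechallenge gave a ratio of 17.5 (95% exact interval 4.6 to 148). The interval covers counting error only, and the 2 counts without rechallenge came from 1 sample.

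The order of the times in Batf2 was also compared directly, in tests added after the values were seen. At 3 weeks Batf2 fell by 3.56 from 2 h to 24 h of rechallenge in YUMM2.1 (SE 0.75, adjusted p = 0.00417, lost without replicate 1 or 2), while at 1 week the change was 1.90 (SE 0.61, adjusted p = 0.21). Compared with naive 2 h, the 2 h level was higher by 3.98 at 2 weeks (SE 0.80, adjusted p = 0.00127, lost without replicate 3) and by 4.12 at 3 weeks (SE 0.78, adjusted p = 0.000528), in comparisons that called 2.15% and 8.1% of all genes.

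In CT26 Batf2 was at 1.37, 1.25 and 0 CPM in the 0-week controls, at 1.80, 2.82 and 3.75 CPM after 2 h and at 5.78, 8.08 and 5.98 CPM after 24 h. The groups did not overlap, and the rise at 24 h of 2.82 (SE 0.76, adjusted p = 0.034) was called while that at 2 h of 1.68 (SE 0.79, adjusted p = 1) was not. The call at 24 h was lost without any 1 replicate, and with the compared groups alone Batf2 did not pass the filter. Chronic exposure gave 0, 1.29 and 3.10 CPM at 1 week, 1.73, 0 and 1.15 CPM at 2 weeks and 13.0, 5.17 and 6.78 CPM at 3 weeks. The 3-week samples were above all others of these groups, with 20 counts against 3 in the same-age control, a ratio of 15.2 (95% exact interval 4.52 to 80.0, which covers counting error only). The log2 fold change was 3.52 (SE 0.77, adjusted p = 0.00204, lost without replicate 1). Batf2 was likewise not tested at 3 weeks in the fit of that group and its control alone. The added comparison with 2 weeks gave 2.92 (SE 0.74, adjusted p = 0.0173), which was lost without any 1 replicate. It too was not tested with the compared groups alone.

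Rechallenge raised Batf2 in CT26 at 1 and 2 weeks at both times. The levels were 12.0, 12.1 and 7.56 CPM at 2 h and 19.3, 12.7 and 10.4 CPM at 24 h at 1 week, and 10.1, 15.5 and 10.9 CPM and 20.3, 8.94 and 17.6 CPM at 2 weeks. All of them lay above the unrechallenged cultures, with rises of 3.45 (SE 0.82, adjusted p = 0.0371), 3.87 (SE 0.79, adjusted p = 0.00219), 3.47 (SE 0.64, adjusted p = 0.00137) and 3.84 (SE 0.63, adjusted p = 0.000116). The first of them was lost by DESeq2 and without replicate 1 or 2, the second without replicate 1 and with the compared groups alone, and the third without replicate 2. For the first, Batf2 did not pass the filter with the compared groups alone. At 3 weeks the levels of 21.1, 18.9 and 14.2 CPM at 2 h were above, and those of 17.5, 7.45 and 10.8 CPM at 24 h overlapped, the unrechallenged ones, and neither change passed (1.03, SE 0.50, and 0.39, SE 0.53).

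Irf9, the DNA-binding subunit of ISGF3, was called in 1 of its 22 responses. It was at 71.8, 68.9 and 76.2 CPM in the 0-week controls of YUMM2.1 and at 145, 148 and 137 CPM in those of CT26, without overlap, a difference of 1.15 on the log2 scale (SE 0.15, adjusted p = 1.05e-09). That comparison between the lines called 46% of the 10339 genes of the joint fit. Over the 11 responses of naive, chronic and rechallenged cells the log2 fold changes lay between -0.15 and 0.65 (YUMM2.1) and between -0.27 and 0.33 (CT26). The call was the rise at 24 h of rechallenge at 1 week in YUMM2.1, where the level went from 70.2, 80.7 and 59.9 CPM to 105, 127 and 114 CPM without overlap (0.65, SE 0.17, adjusted p = 0.0265). It was lost without any 1 replicate, with the compared groups alone and with no filter on low counts.

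Irf2, the repressor that shares binding sites with IRF1, stood at 14.5, 13.5 and 4.96 CPM in the 0-week controls of YUMM2.1 and at 6.17, 10.7 and 5.96 CPM in those of CT26, and none of its 22 responses passed the test. Its highest group in YUMM2.1 was 2 h of rechallenge at 3 weeks with 26.1, 35.3 and 19.2 CPM, and after 24 h that week it had 12.3, 10.46 and 10.52 CPM. These groups did not overlap, and the fall of 1.20 between them (adjusted p = 0.0343) was the only call of Irf2, in a comparison added after the values were seen in which 1.49% of all genes and 3 of 5 members (Irf1, Irf2 and Batf2) were called. It was lost without replicate 1 or 2, with the compared groups alone and with no filter on low counts. Irf3, which acts downstream of pattern recognition receptors, was at 12.9, 8.62 and 19.8 CPM in the 0-week controls of YUMM2.1 and at 4.11, 8.16 and 13.1 CPM in those of CT26, and its 22 log2 fold changes lay between -0.55 and 0.73 with no call.

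**Figure D4:**
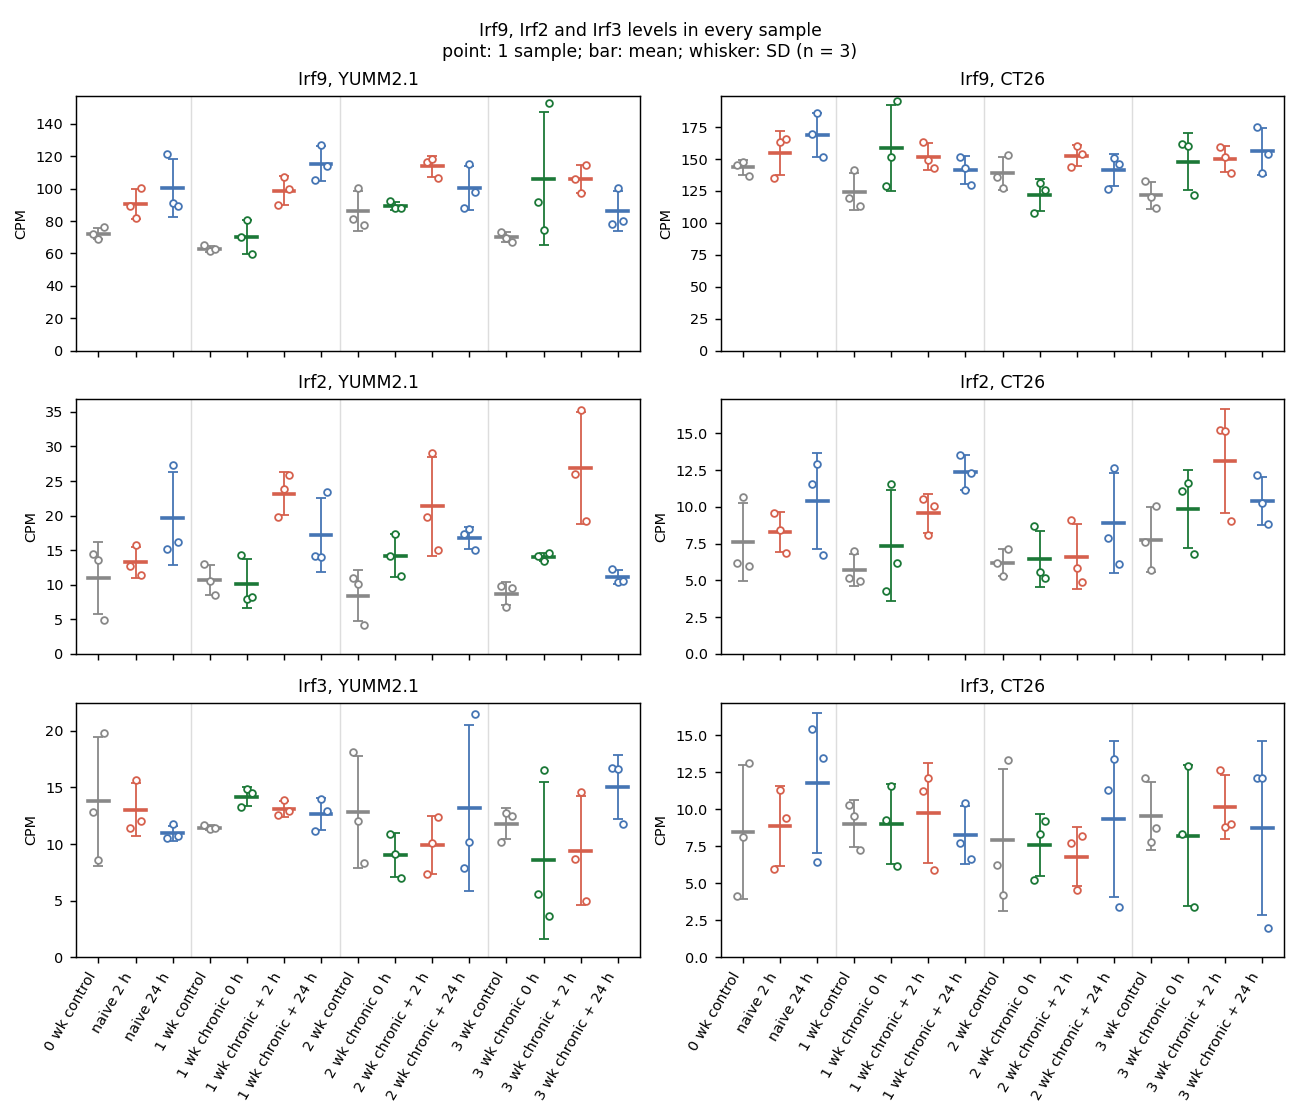
Irf9, Irf2 and Irf3 in CPM by group in both lines, with 1 point per replicate, a bar at the mean and whiskers of 1 SD (n = 3). Irf9 lies between 59.9 and 153 CPM in YUMM2.1 and between 107.5 and 195 CPM in CT26, with groups that overlap for the most part.

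Irf5 and Irf8 were close to the limit of detection. Irf5 had 57 counts over 27 of the 45 YUMM2.1 samples and 17 counts over 15 of the 45 CT26 samples, with at most 5.66 CPM in any sample. In YUMM2.1, 24 h of rechallenge at 1 week gave 10 Irf5 counts against 3 without rechallenge, a ratio of 4.03 (95% exact interval 1.04 to 22.8). The interval covers counting error only, and 1 sample held 7 of the 10 counts, with levels from 1.01 to 5.66 CPM in that group. Irf8 had 14 counts over 10 YUMM2.1 samples and 18 over 14 CT26 samples, and the CT26 samples at 24 h of rechallenge at 3 weeks, with 1.35, 1.86 and 2.94 CPM, were at least 1.52-fold above the 3 counts over the group that the unrechallenged cultures at 0 allow. Irf8 lies inside the same-strand gene Gm20388, so that its few reads cannot be told apart from reads of that gene. Irf4, which is no member, had 0 counts in YUMM2.1 and 1 in CT26.

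The controls of 3 weeks and 0 weeks were compared to ask whether culture alone moved the members. None of the 5 members in YUMM2.1 and none of the 6 in CT26 was called by edgeR, where 0.521% and 0.916% of all genes were called. The log2 differences of Irf1 were 0.33 (SE 0.27) in YUMM2.1 and 0.83 (SE 0.29, adjusted p = 0.181) in CT26. In CT26 the 3-week controls, at 9.94 to 13.7 CPM, lay above those of 0 weeks, at 6.56 to 8.23 CPM. They also lay above those of 1 and 2 weeks, which reached 9.52 and 9.78 CPM.

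**Figure D5:**
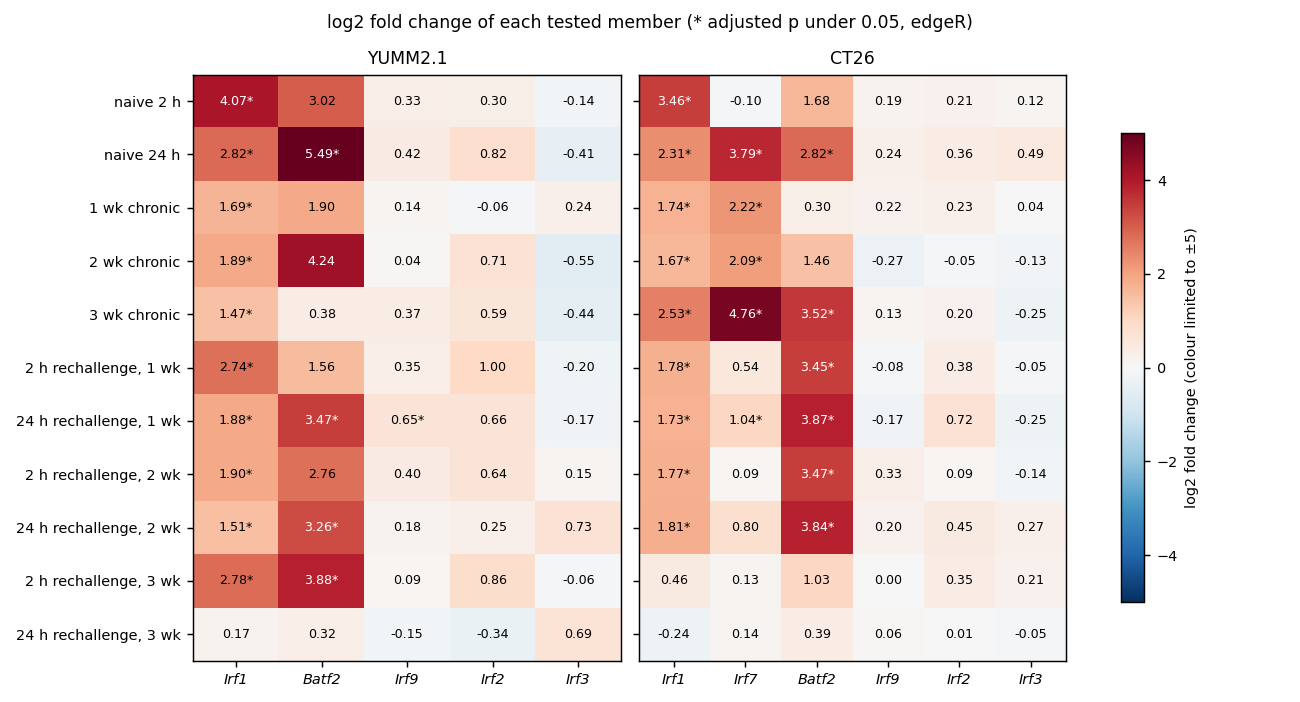
Log2 fold changes of the tested members (across) in the naive, chronic and rechallenge comparisons (down) of each line, printed in each cell and coloured red for higher and blue for lower, with a star where the adjusted p of edgeR was below 0.05. The colour scale ends at 5 in either direction. Irf1 is called in 10 of 11 responses in YUMM2.1 and in 9 of 11 in CT26, and Irf3 in none.

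The 15 groups of a line were ordered by mean level, and neighbouring groups whose samples overlapped were counted. Neighbours in such an order lie close by construction. The count was not made over all genes, so it only describes each member. For Irf1, 9 of the 14 neighbouring pairs of groups overlapped in YUMM2.1 and 11 in CT26, for Irf7 13 overlapped in each line, and for Batf2 12 and 13. For Irf9 it was 12 and 14, and for Irf2 and Irf3 all 14 pairs overlapped in both lines.

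Genes whose profile was most like a member's were found by Pearson's r over the 15 group means of log2 CPM, a description in which the points share libraries and depth. For Irf1 these were Irgm2, Irgm1 and Trim21 in YUMM2.1 (r = 0.9547, 0.9532 and 0.9508) and Irgm1, Irgm2 and Gm4951 in CT26 (0.9646, 0.9495 and 0.9448). For Irf7 in CT26 they were Apol9b, Parp9 and H2-T22 (0.9909, 0.9802 and 0.9786). For Batf2 they were Wars, Usp18 and Ifi211 in YUMM2.1 (0.9657, 0.9533 and 0.9518) and Ifi203, Cd274 and Gm4841 in CT26 (0.9616, 0.957 and 0.953), and for Irf2 in YUMM2.1 Rnf19b, Parp14 and Trim21 (0.9336, 0.9271 and 0.9235). Irf3, Irf9 and, in CT26, Irf2 spanned less than 1 log2 unit and were not matched.

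Of the partners of the members, Stat2 rose in CT26 at 24 h (3.14, adjusted p = 1.25e-05) and at 3 weeks (3.86, adjusted p = 1.29e-07). In YUMM2.1 it rose upon rechallenge at 1 week for 2 h (2.32, adjusted p = 0.00739) and 24 h (2.11, adjusted p = 0.0159). Of 8 adaptors and kinases that activate IRF3, IRF5 and IRF7, 5 of the YUMM2.1 fit and 4 of the CT26 fit passed the filter, and none was called in the naive, chronic or rechallenge comparisons.

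A list of 22 IFNγ targets with IRF1 or GAS sites, 16 of them tested in each line, was compared with a list of 28 ISGF3 targets, 16 tested in YUMM2.1 and 26 in CT26. At naive 2 h, 6 of the 16 IRF1 or GAS targets rose in YUMM2.1 (median log2 fold change 2.15, against 0.0072 over all tested genes), among them the GTPases Igtp (4.56) and Gbp2 (3.94), and 5 rose in CT26. At naive 24 h, 14 and 15 rose, among them the immunoproteasome subunits Psmb9 (6.33) and Psmb8 (6.31) in YUMM2.1 and the guanylate-binding protein Gbp3 (5.45) in CT26. Of the ISGF3 targets, 2 rose in YUMM2.1 and 1 in CT26 at 2 h, and 7 and 24 at 24 h, among them the nucleic acid sensor Zbp1 (6.30 in YUMM2.1 and 5.59 in CT26). The shares of all genes called were 0.24% in YUMM2.1 and 0.235% in CT26 at 2 h, and 0.886% and 2.04% at 24 h.

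Without rechallenge, targets of both lists were above the same-age control at each week, beside 0.73%, 1.12% and 0.97% of all genes called for YUMM2.1 and 0.728%, 1.67% and 7.23% for CT26. Of the IRF1 or GAS targets 11, 14 and 11 rose in YUMM2.1 at 1, 2 and 3 weeks and 10, 10 and 15 in CT26, and of the ISGF3 targets 7, 7 and 5 and 11, 10 and 24. At 3 weeks against naive 24 h, 6 IRF1 or GAS targets were lower in YUMM2.1, with Gbp2 at -1.58, Gbp3 at -1.32 and Igtp at -1.01, and 2 were higher in CT26, B2m at 0.71 and Gbp7 at 0.65. These comparisons called 0.594% and 4.8% of all genes. The 24 h rechallenge raised 12, 9 and 0 of the IRF1 or GAS targets in YUMM2.1 at 1, 2 and 3 weeks and 10, 10 and 0 in CT26, and 11, 6 and 0 and 9, 3 and 0 of the ISGF3 targets. The 2 h rechallenge at 3 weeks raised 9 of 16 IRF1 or GAS targets in YUMM2.1 and 0 of 16 in CT26, where 1.08% and 0.0117% of all genes were called. The difference between the lines was not tested for the lists.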

How the data were processed

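RNA of 90 samples was measured by 3′ digital gene expression. The authors deposited 1 table of raw counts per gene and sample, without normalization or pooling. Submitters' processing notes name Salmon 0.13.1 and mm10, and the methods name tximport; whether molecular identifiers were counted was not given in the sources used here. Of 53697 identifiers, 53668 matched a symbol, and 0 columns were left unused. In R 4.3.3 with edgeR 4.0.16, counts were filtered by filterByExpr, TMM-normalised and fitted by quasi-likelihood over the 15 groups of a line, or over 30 groups for differences between lines, with Benjamini-Hochberg adjustment over all tested genes. SE is the log2 fold change divided by the root of F. Scripts were tested on simulated data. Profiles used log2 CPM with a prior count of 2. DESeq2 1.42.0, other filters and scalings, a replicate block, left-out replicates and left-out libraries under 25% of the median total were alternatives. Intervals of count ratios are 95% exact intervals, and floors are 3 counts over a group. Total counts ranged from 274719 to 3161276, so genes with a few counts had low precision. Samples that the study left out were not identified in the labels, and all were used. The members, lists and comparisons were chosen with earlier results of these data known. Named genes were the 8 members, Stat2 and Irf4, with others of that rule not reported here, at most 3 genes per target list and comparison with the largest called change, and the 3 genes most like each member in profile.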

Additional observations from a re-analysis of the deposited data

Results flagged for a closer look

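Each of the following is a difference between effects that was itself tested by edgeR's quasi-likelihood test, with adjusted p-values and per-replicate levels given above. Groups held 3 samples, so no test for a single deviating sample was run. The response of Irf1 to 24 h of rechallenge at 3 weeks in YUMM2.1 differed from the naive 24 h response by -2.65, from that at 1 week by -1.71 and from that at 2 weeks by -1.34 on the log2 scale, and none of the 3 rechallenged samples exceeded the highest unrechallenged sample. In CT26 the response of Irf1 at 3 weeks differed from the naive one by -3.01 at 2 h and by -2.55 at 24 h, and at 24 h from those at 1 and 2 weeks by -1.97 and -2.05. The 24 h response of Irf7 in CT26 at 3 weeks differed from the naive one by -3.65. Between the lines (CT26 minus YUMM2.1), the 2 h rechallenge response of Irf1 at 3 weeks differed by -2.29, and the difference of the 3-week chronic level from naive 24 h by 2.08. The latter compares levels, not rises over the controls. The unrechallenged 3-week group enters each of these comparisons, and its replicate 3 was of low depth in both lines. The calls were the same without the libraries of low depth. In YUMM2.1, 0 of 9589 genes were called by edgeR at 24 h of rechallenge at 3 weeks, against 351 at an unadjusted p below 0.05.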

How the results depend on the processing

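Over 736 refits of the 83 called tests of members, 658 kept the call, 78 lost it and 0 reversed direction, and 13 refits called a test of a member that had not passed. Library totals in place of TMM and the replicate block kept 83 of 83, no filter kept 78, leaving out the 3 libraries of low depth kept 81, and DESeq2 kept 77 of the 78 for which it gave an adjusted p. Library totals and DESeq2 added 4 calls each, the replicate block and no filter 2 each, and fits of the compared groups 1. Fits of only the compared groups kept 66 of 77, and in the rest of the 83 the member did not pass the filter of that fit. Without replicate 1, 2 or 3, 57, 64 and 69 of 83 were kept, and Batf2 lost 28 of 48 such refits against 20 of 144 for Irf1. The replicate numbers gave no clear pairing of the samples: deviations of same-numbered samples correlated at 0.0032 in YUMM2.1 and 0.0162 in CT26 on average. Of the 3 numbers, 19 of 45 and 23 of 45 samples correlated best with their own, so pairing of a part of the samples was not excluded. The block changed 1 of 13 counts of called members, the line differences, from 3 to 4. Of the 117 refitted counts, 115 were within 1.5 times the main one. The exceptions were the rechallenge calls of YUMM2.1, 9 in all and 5 to 6 without a replicate, and the calls in that line for 3 weeks less naive, 1 by edgeR and 2 by DESeq2, which added Irf1 at 2 h. Depth limited Irf5, Irf8 and, in YUMM2.1, Irf7, which did not pass the filter and were tested within the line only in the fit with no filter.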
